A study of Rattus norvegicus with 10 samples.

Results

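Collagens, laminins, nidogens and fibronectin are the large secreted proteins from which basement membranes and fibrous matrix are built, and their transcripts were followed in the supraoptic nucleus of rats after knock-down of the opsin Opn3. The members were rows of the deposited gene table whose name begins with Col or Lam followed by a chain number, together with Fn1, Nid1 and Nid2. Of the 32623 genes in the table, 54 are described, namely 42 collagen genes, 9 laminin genes, both nidogens and fibronectin. A mean of at least 10 normalized counts over the 10 samples was required for testing, and 50 of the 54 met it.

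The supraoptic nucleus is a paired hypothalamic nucleus whose large neurons release vasopressin and oxytocin. The animals were male Sprague-Dawley rats, an outbred strain, of 250 to 300 g; their age was not given. In each animal one nucleus had received an adeno-associated virus carrying a short hairpin RNA against Opn3 (the shOpn3 group, 5 samples) and the opposite nucleus a virus with a hairpin that has no intended target (the shControl group, 5 samples), so that both groups carried a virus, an injection and a hairpin. No uninjected tissue was analysed here, and neither the promoter driving the hairpins nor the cells the virus entered are given in the sources used here. Tissue was taken 2 weeks later as a 1 mm punch from 100 µm frozen sections, and RNA was extracted from each nucleus separately. A punch holds neurons, glia, vessels and any attached meninges.

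Basement membranes are thin sheets that surround brain vessels and line the pial surface. Laminins are cross-shaped trimers of an alpha, a beta and a gamma chain that assemble on cell surfaces, type IV collagen forms a second covalent network, and nidogens bind laminin and link the networks together. Vessel-wall cells, meningeal fibroblasts and, on the parenchymal side, astrocytes are known sources of these chains in brain. Fibrillar collagens give tissue tensile strength and in brain are mostly found in the meninges and around larger vessels.

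Libraries held 33158341 to 39958578 reads, and the groups did not differ beyond the spread between samples (exact two-sided permutation test, p = 0.492). The members together took 0.118% to 0.178% of the reads of a library, with 0.144% ± 0.0182 in shControl and 0.145% ± 0.0206 in shOpn3 (SD; n = 5 per group). The target itself stood at 719, 694, 841, 1007 and 261 normalized counts (read counts divided by a size factor per library) in shControl replicates 1 to 5 and at 289.7, 193, 159, 154 and 145 in shOpn3 replicates 1 to 5, and gave a log2 fold change of -1.82 (SE 0.320; limma BH-adjusted p = 0.00226). The library labelled shControl replicate 5 lay below the shOpn3 sample of replicate 1. Without it limma called 6 members, the 5 described below and Col24a1, and 2901 of all genes. Nothing in the labels says that the 5 samples of a group came from different animals, so p-values measure the spread between these samples.

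Some libraries stood apart in the matrix genes. In shControl, replicates 1 and 5 held the highest values for 31 of the 50 tested members (62%), against 32.6% of all 15597 genes tested. The median member lay 0.40 higher on the log2 scale in shControl replicates 1 and 5 than in replicates 2 to 4, whereas over all genes this median was 0.01. In shOpn3, replicates 1 and 5 were the highest pair for 6 of the 50 members (12%), against 18.3% of all genes. There replicate 4 was the highest sample, for 27 of the 50 members (54%) against 26.1% of all genes. Calls below that change without one of these libraries are given with and without it.

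Across the whole family most members did not pass the test. Values were compared as log2(normalized count + 1) with limma, with the group as the only term, so the pairing of samples was not used. A gene is called here when its Benjamini-Hochberg adjusted p over all 15597 genes was under 0.05. Of the 50 tested members, 5 were called (10%), against 18.8% of all genes tested. A rise was called for 3 members, 6% of them against 10.4% of all genes: the fibrillar collagen chain Col11a1, the fibril-associated collagen Col19a1 and the laminin chain Lamb1. A fall was called for Col2a1 and Nid1, 4% of the members against 8.48% of all genes. The median log2 fold change was 0.01 over the 50 members and -0.02 over all genes. For 6 of the 50 members the groups did not overlap (12%, against 15.3% of all genes), and in 8 of the 50 all 5 same-numbered pairs differed in the same direction (16%, against 39.4%). The authors' deposited table listed an adjusted p under 0.05 for 7 of the 51 members that had one (13.7%, against 21.3% of its 17437 genes), the 5 above with the same signs and also Col22a1 and Col9a3.

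**Figure D1:**
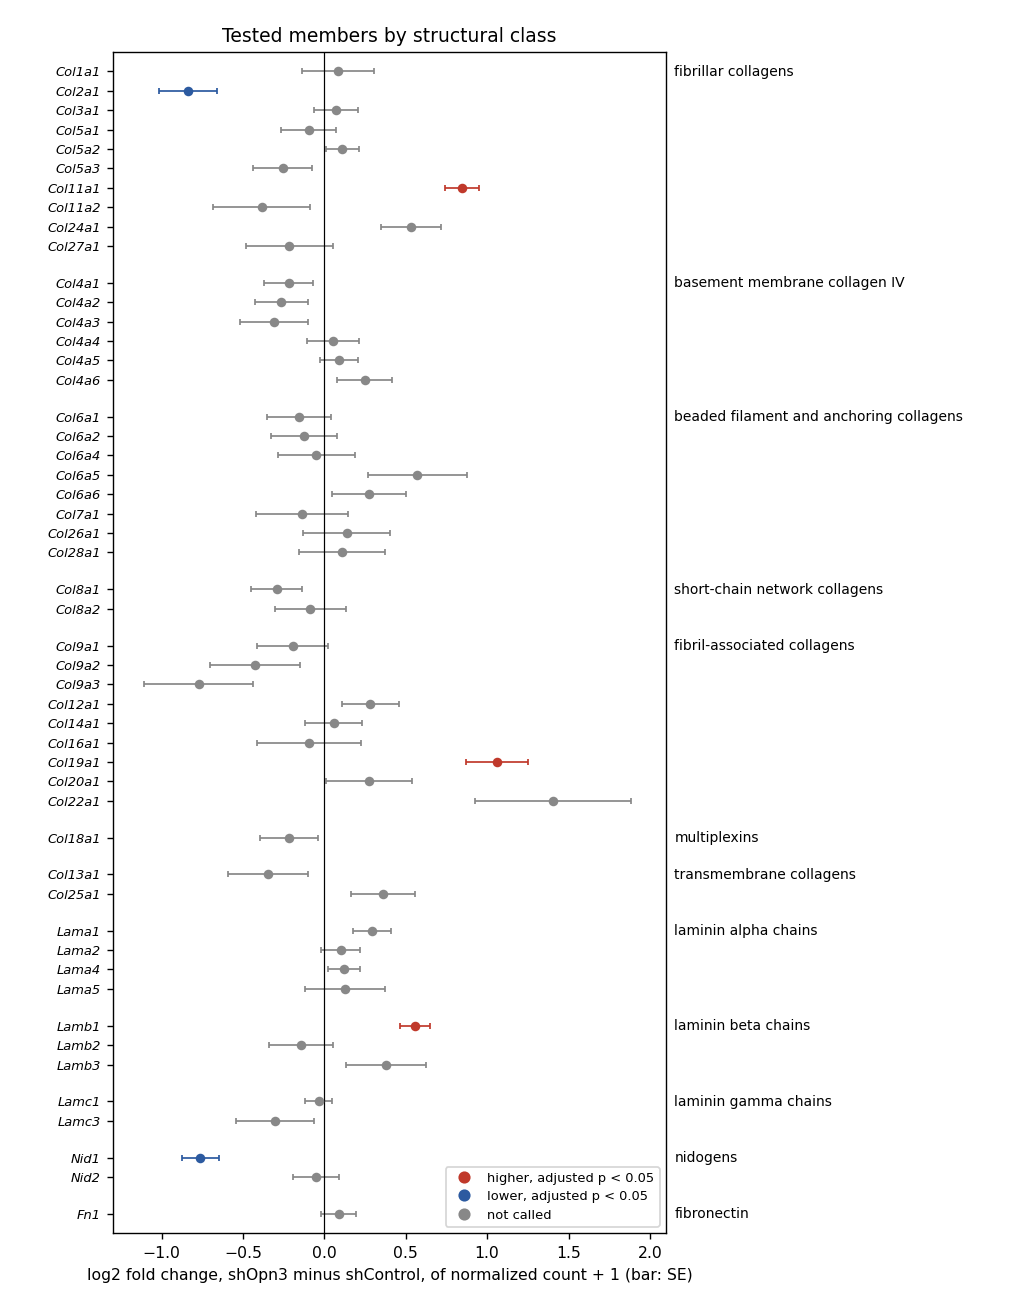
Log2 fold changes (shOpn3 minus shControl, on log2 of the normalized count + 1) of the 50 tested members, grouped by structural class; points are estimates from 5 samples in each group and bars are standard errors. Of the 50 points, 3 are called higher and 2 lower at a limma BH-adjusted p under 0.05, and these 5 lie in 4 of the classes drawn.

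The replicate numbers were taken to pair the samples. When the replicate number entered the limma model as a block, 10 of the 50 members were called (20%), against 30.3% of all genes. They were the 5 named above and 5 more. Col24a1, Col25a1 and Lama1 were called higher and Col9a3 and Col4a2 lower, each with the same log2 fold change as without the block.

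Among laminin chains, Lamb1 rose. Without the replicate block no alpha chain of the 4 tested was called by limma, edgeR or DESeq2, and 1 of the 4 had an unadjusted limma p under 0.05. Lamb1 encodes the beta chain of the laminins of developing and vascular basement membranes. It (ENSRNOG00000005678) stood at 1006, 949, 881, 1051 and 868 normalized counts in shControl replicates 1 to 5 and at 1593, 1407, 1273, 1496 and 1234 in shOpn3 replicates 1 to 5. Every shOpn3 sample lay above every shControl sample. The mean went from 951 ± 78.7 to 1401 ± 150.2 (SD; n = 5 per group), a log2 fold change of 0.56 (SE 0.0917; limma BH-adjusted p = 0.00160), and the rise was seen in 5 of 5 pairs.

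Its closest relative and the common gamma chain gave values nearer to 0. Lamb2, the beta chain of mature vascular and synaptic basement membranes, stood at 3184, 2030.0, 1658, 2013 and 2847 in shControl replicates 1 to 5 and at 2459.9, 1576, 1637, 2622 and 2244 in shOpn3 replicates 1 to 5, with overlapping groups and a log2 fold change of -0.14 (SE 0.194; limma BH-adjusted p = 0.659). Its highest values were those of shControl replicates 1 and 5. Lamc1, the gamma chain shared by most laminins, had 2932, 2670.0, 2475, 2444 and 2889.6 in shControl replicates 1 to 5 and 2591, 2324, 2599, 2976 and 2595 in shOpn3 replicates 1 to 5. Those groups overlapped, with a log2 fold change of -0.04 (SE 0.0830; limma BH-adjusted p = 0.808).

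Lama2, the alpha chain of laminin 211, which astrocytes and vessel-wall cells make, had 1635, 2160.2, 2018, 2170.3 and 1779 in shControl replicates 1 to 5 and 1831, 1953, 2268, 2628 and 1825 in shOpn3 replicates 1 to 5 (log2 fold change 0.10, SE 0.118; limma BH-adjusted p = 0.606). Its groups overlapped, and the highest sample was shOpn3 replicate 4. Lama1, the alpha chain of embryonic and pial basement membranes, went from 357 ± 28.9 to 440.3 ± 66.0 (SD; n = 5 per group; log2 fold change 0.29, SE 0.116; limma BH-adjusted p = 0.103), was higher in 5 of 5 pairs, and was called with the replicate block (adjusted p = 0.0422). Its replicate 2 pair was almost level, at 374 in shControl and 376 in shOpn3. The endothelial alpha chains Lama4 and Lama5 gave log2 fold changes of 0.12 and 0.13 (with SE 0.0964 and 0.246), and the chains Lamb3 and Lamc3 had 0.38 and -0.30 (SE 0.249 and 0.241), none of them called.

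Nidogens link laminin to type IV collagen. Nid1 (ENSRNOG00000002461) fell: it had 8009.8, 8912, 9131, 9211 and 7567 normalized counts in shControl replicates 1 to 5 and 5489.6, 4992, 4502, 6414 and 4094 in shOpn3 replicates 1 to 5. No shOpn3 sample reached the lowest control. The means were 8566 ± 735 and 5098 ± 903 (SD; n = 5 per group), which left 59.5% of the control level, a log2 fold change of -0.76 (SE 0.115; limma BH-adjusted p = 0.000956), lower in 5 of 5 pairs. Nid2, its close relative in vascular basement membranes, had 857, 729, 554, 759 and 736 in shControl replicates 1 to 5 and 707, 598, 695, 921 and 599 in shOpn3 replicates 1 to 5. Those groups overlapped, and the log2 fold change was -0.05 (SE 0.140; limma BH-adjusted p = 0.840).

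**Figure D2:**
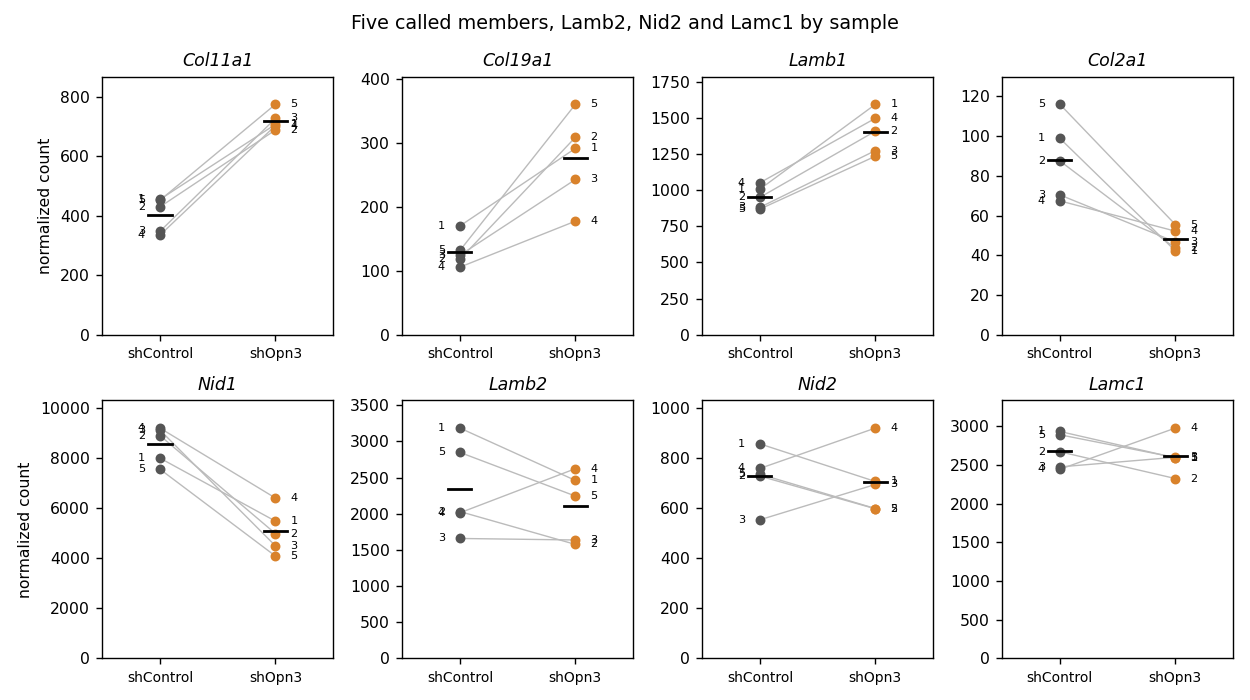
Normalized counts (vertical axes, from 0) of the 5 called members and of Lamb2, Nid2 and Lamc1 in each sample; points are samples labelled with their replicate number, grey lines join same-numbered samples and short bars are group means (n = 5). Lamb1, Col11a1, Col19a1, Col2a1 and Nid1 show no overlap between the groups, and Lamb2, Nid2 and Lamc1 overlap.

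Fibrillar collagens, whose long triple helices pack into banded fibres, gave 1 rise and 1 fall among 10 tested genes (20%, near the 18.8% of all genes). Col11a1 encodes a minor fibrillar chain that sits inside fibrils and helps to set their diameter. It (ENSRNOG00000023148) stood at 456, 430.4, 348, 335 and 453 in shControl replicates 1 to 5 and at 708, 689, 728, 704 and 776 in shOpn3 replicates 1 to 5. The shOpn3 samples lay close together and all above the controls. The means were 404 ± 58.3 and 721 ± 33.5 (SD; n = 5 per group; log2 fold change 0.84, SE 0.106; limma BH-adjusted p = 0.000410), with a rise in 5 of 5 pairs.

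The 120 bases before the start of Col11a1, a gene whose groups lay clearly apart, are shown with the GC boxes and the CCAAT box found in them in capitals, from RefSeq on build GRCr8, chr2:204509016-204509135, plus strand.
Col11a1: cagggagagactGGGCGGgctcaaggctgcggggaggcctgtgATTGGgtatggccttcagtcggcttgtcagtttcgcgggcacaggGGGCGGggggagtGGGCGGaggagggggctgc
The letters searched for were CCAAT and GGGCGG, together with TATAAA and TGANTCA, on both strands, and a match is a description of the sequence only. In the 250 bases before a start, GGGCGG occurred in 30.5% of the 33469 promoters in the RefSeq table and in 25 of the 42 members listed there (59.5%), and CCAAT in 34.0% and 31.0%. TATAAA occurred in 12.9% of all promoters and in 4 of the 42 members (9.52%), and TGANTCA in 6.34% and in 1 of the 42 (2.38%). The share of all promoters was taken over every listed promoter and that of members over 1 promoter per gene. These sets are not matched, and no test compared them.

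Col2a1 encodes the main collagen of cartilage, which also occurs in the eye and the developing neuraxis. It (ENSRNOG00000058560) had few reads, with 98.9, 87.5, 70.4, 67.4 and 116 normalized counts in shControl replicates 1 to 5 and 42.2, 43.5, 46.7, 52.2 and 55.5 in shOpn3 replicates 1 to 5. All shOpn3 samples lay below all controls. The mean fell from 88.1 ± 20.2 to 48.0 ± 5.66 (SD; n = 5 per group; log2 fold change -0.84, SE 0.179; limma BH-adjusted p = 0.00652), in 5 of 5 pairs.

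The main fibrillar collagens of connective tissue did not pass the test. Col1a1, a chain of type I collagen, had 2200.0, 1513, 975, 1418 and 1977 in shControl replicates 1 to 5 and 2381, 1316, 1318, 1956 and 1514 in shOpn3 replicates 1 to 5 (log2 fold change 0.09, SE 0.222; limma BH-adjusted p = 0.832). Its 2 highest control values were those of replicates 1 and 5. Col3a1, which builds type III collagen of vessel walls, had 3824, 4021, 2714, 4037 and 4054 in shControl replicates 1 to 5 and 4545, 3747, 3362, 4698 and 3249 in shOpn3 replicates 1 to 5 (log2 fold change 0.07, SE 0.137; limma BH-adjusted p = 0.766). The partner chain of Col1a1 stood in the table as a pair of rows under a placeholder name with mean normalized counts of 0.310 and 0.207, so the 2 chains of type I collagen could not be compared.

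Among the remaining fibrillar chains, Col24a1 was low, with means of 25.1 ± 4.52 and 36.5 ± 4.31 normalized counts in shControl and shOpn3 (SD; n = 5 per group; log2 fold change 0.53, SE 0.185). Its groups did not overlap, and it was not called (limma BH-adjusted p = 0.0656), whereas it was called with the replicate block (0.0485) and without shControl replicate 5 (adjusted p = 0.0495). The type V chains, which start fibrils, had log2 fold changes of -0.10 for Col5a1, 0.11 for Col5a2 and -0.25 for Col5a3 (SE 0.171, 0.0999 and 0.181). Col11a2, the partner chain of Col11a1, had -0.38 (SE 0.299) with 1317, 563, 438, 455 and 1107 normalized counts in shControl replicates 1 to 5 and 686, 461, 400.0, 574 and 593 in shOpn3 replicates 1 to 5. Its controls were split, with replicates 1 and 5 far above the other controls. In shOpn3 replicates 1 and 5 were also the highest pair, above replicates 2 to 4 by 0.43 on the log2 scale. The log2 fold change of Col11a2 was -0.15 without shControl replicate 1 and 0.14 without both replicates 1 and 5 of shControl. Col27a1 had -0.22 (SE 0.267).

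Type IV collagen is the network collagen of every basement membrane, and its 6 genes lie as 3 pairs of neighbours that are read in opposite directions. Without the replicate block none of the 6 was called by limma, edgeR or DESeq2, and 0 of the 6 had an unadjusted limma p under 0.05. Col4a1, a chain of the common network, had 2169, 1439, 1391, 1247 and 1669 normalized counts in shControl replicates 1 to 5 and 1753, 1239, 1169, 1397 and 1189 in shOpn3 replicates 1 to 5 (log2 fold change -0.22, SE 0.153; limma BH-adjusted p = 0.356). The other chain of the common network, Col4a2, had 1391, 985, 799, 811 and 1029.7 in shControl replicates 1 to 5 and 1067, 732, 666, 871 and 807 in shOpn3 replicates 1 to 5 (log2 fold change -0.26, SE 0.162; limma BH-adjusted p = 0.293, and 0.0495 with the replicate block). Both genes were highest in shControl replicate 1 and lower in shOpn3 in 4 of 5 pairs.

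The starts of Col4a1 and Col4a2 are 76 bases apart on chromosome 16, and those of Col4a3 and Col4a4 are 412 apart on chromosome 9, in RefSeq on build GRCr8. The stretch between the starts of Col4a1 and Col4a2 is printed because both genes are read outward from it; it is chr16:84885521-84885596, plus strand, with its GC box in capitals, and 78.9% of its bases are G or C.
Col4a2 to Col4a1: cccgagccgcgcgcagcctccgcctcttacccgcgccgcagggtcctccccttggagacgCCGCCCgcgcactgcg
Across the samples the log2 ratio of Col4a1 to Col4a2 moved little. Its spread within groups was 0.0949 (pooled SD of the log2 ratio over 5 samples in each group), against 0.277 for Col4a1 and 0.293 for Col4a2 on their own. Of the 1225 pairs that can be formed from the 50 tested members, 4 had a smaller spread, and the median was 0.385. These were Col5a2 with Lamc1, Lamb2 with Col6a2, Col6a1 with Col6a2, and Lama2 with Lama4. The ratio of Col4a5 to Col4a6 had a spread of 0.160, with 37 of the 1225 pairs smaller. That of Col4a3 to Col4a4 had one of 0.377, with 586 pairs smaller, so it lay near the median pair. These values describe the 10 libraries, which share their preparation and scaling, and no test is attached to them.

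**Figure D3:**
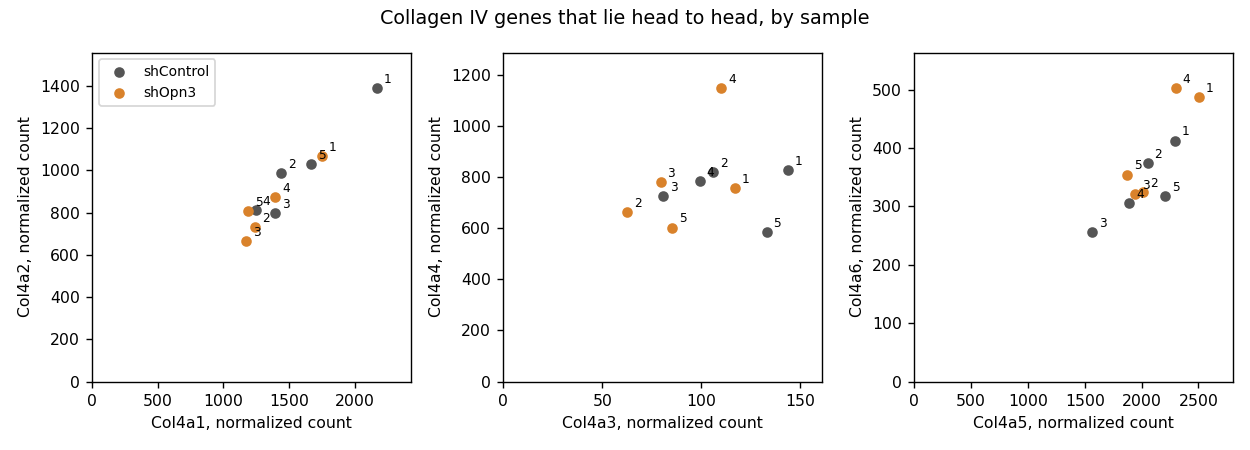
Normalized counts of the 3 pairs of type IV collagen genes plotted against each other (both axes from 0), 1 point per sample labelled with its replicate number, grey for shControl and orange for shOpn3. Col4a1 and Col4a2 lie along 1 line in both groups, Col4a3 and Col4a4 are scattered, and shControl replicate 1 has the highest Col4a1 and Col4a2.

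The other type IV chains gave a log2 fold change of -0.31 for Col4a3, 0.05 for Col4a4, 0.09 for Col4a5 and 0.25 for Col4a6 (SE 0.208, 0.161, 0.115 and 0.168; limma BH-adjusted p from 0.337 to 0.855). Col4a3 and Col4a4 join Col4a5 in the network of kidney and eye.

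Fibril-associated collagens coat the surface of fibrils and carry short interrupted helices. Col19a1, which in brain is known from interneurons and their synapses, rose. It (ENSRNOG00000012759) had 170.2, 118, 124, 106 and 132 in shControl replicates 1 to 5 and 292, 309, 243, 178 and 361 in shOpn3 replicates 1 to 5. The lowest shOpn3 sample, replicate 4, lay just above the highest control, replicate 1. The means were 130.1 ± 24.4 and 276 ± 69.4 (SD; n = 5 per group; log2 fold change 1.06, SE 0.191; limma BH-adjusted p = 0.00258), with a rise in 5 of 5 pairs.

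A larger estimate belonged to Col22a1, a collagen of tissue junctions, but on few reads. It had 18.4, 11.2, 4.08, 2.81 and 12.7 normalized counts in shControl replicates 1 to 5 and 13.4, 17.0, 27.1, 50.2 and 20.5 in shOpn3 replicates 1 to 5. The groups overlapped, and its log2 fold change of 1.40 (SE 0.480) was not called (limma BH-adjusted p = 0.0612). By limma it was called without shControl replicate 1 (1.67, adjusted p = 0.0323) and without shOpn3 replicate 1 (1.59, adjusted p = 0.0473), and DESeq2 on the recovered reads also called it (adjusted p = 0.0378). It was called in 6 of 25 alternatives, and without both samples of replicate 4 its log2 fold change was 0.82 (limma BH-adjusted p = 0.249).

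The type IX chains join the surface of type II fibrils, and Col9a2 and Col9a3 followed the split of the control libraries. Col9a3 had 464, 169, 155, 159 and 367 normalized counts in shControl replicates 1 to 5 and 205, 82.8, 122, 148 and 156 in shOpn3 replicates 1 to 5. All 5 shOpn3 samples lay below the control of the same number (log2 fold change -0.77, SE 0.336; limma BH-adjusted p = 0.134), and the gene was called with the replicate block (0.0149) and by DESeq2 (adjusted p = 0.0432). Its values in shControl replicates 1 and 5 exceeded those of replicates 2 to 4 by 1.35 on the log2 scale, more than the difference between the groups. In shOpn3 the same replicate numbers also exceeded the others, by 0.64 for Col9a3 and 0.32 for Col9a2. Without both of those controls, but with the same-numbered shOpn3 samples kept, the log2 fold change of Col9a3 was -0.23 (limma BH-adjusted p = 0.541). Col9a2 had -0.42 (SE 0.277), with -0.19 without shControl replicate 1 and 0.04 without both of those controls, and Col9a1, at 21.4 ± 5.14 and 18.3 ± 2.91 normalized counts (SD; n = 5 per group), had -0.19 (SE 0.220). Col12a1 had 0.28, Col14a1 0.06, Col16a1 -0.10 and Col20a1 0.27 (log2 fold changes, SE 0.176, 0.175, 0.320 and 0.266), with no call.

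The remaining collagen classes (beaded and anchoring, short-chain, membrane-spanning and Col18a1) held no gene called by limma, edgeR or DESeq2 without the replicate block, and 0 of their 13 tested genes had an unadjusted limma p under 0.05. Type VI collagen forms beaded filaments next to basement membranes, and its chains Col6a1, Col6a2, Col6a4, Col6a5 and Col6a6 had log2 fold changes from -0.16 (Col6a1) to 0.57 (Col6a5). Col6a5, with 31.4 ± 8.23 and 48.9 ± 18.6 normalized counts (SD; n = 5 per group), was called without shOpn3 replicate 1 (0.81, limma BH-adjusted p = 0.0475) and in none of the other alternatives run. Col7a1, the anchoring-fibril collagen of skin, had -0.14 (SE 0.285), Col26a1 0.14 (SE 0.267) and Col28a1 0.11 (SE 0.264). Of the short-chain network collagens, Col8a1, which vessel-wall cells make, had -0.29 (SE 0.156; limma BH-adjusted p = 0.222) and was called lower without shOpn3 replicate 4 (-0.43, adjusted p = 0.0309), and Col8a2 had -0.09 (SE 0.218).

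Col18a1, a basement membrane collagen that is the source of endostatin, had 1034 ± 302 and 868 ± 130.0 normalized counts (SD; n = 5 per group; log2 fold change -0.22, SE 0.179). Of the collagens that span the cell membrane, Col13a1, found at neuromuscular junctions, had -0.34 (SE 0.246). Col25a1, a neuronal collagen first described in amyloid plaques, had 1089.8, 634, 761, 544 and 869 in shControl replicates 1 to 5 and 1311, 1053, 751, 786 and 1073 in shOpn3 replicates 1 to 5, with overlapping groups (log2 fold change 0.36, SE 0.196; limma BH-adjusted p = 0.230, and 0.0316 with the replicate block). A second row described as a type XXV chain had 173 ± 46.9 and 251 ± 67.0 normalized counts (SD; n = 5 per group). The log2 fold change of that row was 0.53 (SE 0.220; limma BH-adjusted p = 0.119, and 0.0259 with the replicate block). Reads of this collagen may thus be split between 2 rows, and its level is uncertain.

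Fibronectin is the soluble matrix glycoprotein that binds integrins, collagens and fibrin and is deposited early in wounds. Fn1 had 7549, 8373, 7081, 7725 and 9024 normalized counts in shControl replicates 1 to 5 and 7798, 7758, 7997, 10941 and 7974 in shOpn3 replicates 1 to 5. The shOpn3 samples lay among the controls except for replicate 4, which was above all others. The means were 7951 ± 758 and 8494 ± 1372 (SD; n = 5 per group; log2 fold change 0.09, SE 0.106; limma BH-adjusted p = 0.615).

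The 4 members below the minimum were Col10a1, Col15a1, Col17a1 and Col23a1. Col17a1 was the nearest to it, with a mean of 7.47 normalized counts over the 10 samples, and Col22a1, at 17.7, was the lowest member tested. Over all 10 libraries Col17a1 had 74 reads, Col10a1 13, Col15a1 3 and Col23a1 0. Under other names the table held rows described as the alpha 3 chain of type VI collagen (1149 ± 140 in shControl and 1336 ± 277 in shOpn3, SD; n = 5 per group; log2 fold change 0.20, SE 0.136), the alpha 3 chain of laminin (280.5 ± 33.7 and 290.2 ± 24.5; 0.05, SE 0.112) and a type XXIII chain (16.8 ± 11.6 and 12.2 ± 3.34; -0.17, SE 0.455), none of them called (limma BH-adjusted p = 0.336, 0.786 and 0.838). They fall outside the naming rule and are in no count of members. A row described as a copy of the second type XI chain had a mean of 0.204 normalized counts.

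The ratio between related chains within each sample was compared between groups for 6 pairs, with p-values adjusted over the 6 by Benjamini-Hochberg. In 3 pairs a called chain stood beside a relative that was not called, and the 3 type IV pairs held no called chain. The pairs were chosen after the calls were known in these same samples, so the p-values of the first 3 give no support beyond those calls. Col19a1 and Col2a1 were put in no ratio. The log2 ratio of Nid1 to Nid2 was 3.57 ± 0.312 in shControl and 2.86 ± 0.148 in shOpn3 (SD; n = 5 per group), a change of -0.71. That of Lamb1 to Lamb2 went from -1.26 ± 0.393 to -0.56 ± 0.297, a change of 0.70 (SD; n = 5 per group). For Col11a1 to Col11a2 the change was 1.23, from -0.79 ± 0.568 to 0.43 ± 0.307. For each of these 3 ratios the groups did not overlap and all 5 same-numbered pairs moved the same way (exact two-sided permutation test, p = 0.00794, the smallest that 5 against 5 samples allow; adjusted p = 0.0159).

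Those ratios carry no correction for gene length, so only their change between groups is meaningful. The ratio of Lamb1 to Lamb2 was no longer called without shOpn3 replicate 2 (0.60, exact permutation test, adjusted p = 0.0635). With both samples of any 1 replicate number left out, the changes of all 3 ratios kept their sign. The groups of 4 gave an adjusted p of 0.0571 each time (exact permutation test). Each unadjusted p was then the smallest that groups of 4 can give. With shControl replicates 1 and 5 left out together, the changes were -0.89 for Nid1 to Nid2, 0.42 for Lamb1 to Lamb2 and 0.82 for Col11a1 to Col11a2, each on 3 against 5 samples and none called (exact permutation test, adjusted p from 0.0536 to 0.107). For Nid1 to Nid2 and Col11a1 to Col11a2 the unadjusted p was then the smallest that so few samples can give. The ratios of the type IV pairs changed by 0.04 for Col4a1 to Col4a2, -0.36 for Col4a3 to Col4a4 and -0.16 for Col4a5 to Col4a6, none of them called (exact permutation test, adjusted p = 0.484, 0.210 and 0.210). Their groups overlapped, but the ratio of Col4a3 to Col4a4 was also lower in 5 of 5 same-numbered pairs, that of Col4a5 to Col4a6 in 4 and that of Col4a1 to Col4a2 in 1; the permutation test does not use the pairs.

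The split of the control libraries was wide in several collagens. In shControl, replicates 1 and 5 exceeded replicates 2 to 4 by 1.40 on the log2 scale for Col22a1, 1.35 for Col9a3, 1.32 for Col11a2, 1.22 for Col16a1, 1.15 for Col9a2, 0.99 for Col27a1, 0.93 for Lama5 and 0.67 for Lamb2. The called genes gave 0.52 for Col2a1, 0.37 for Col19a1, 0.30 for Col11a1, -0.04 for Lamb1 and -0.22 for Nid1. With shControl replicates 1 and 5 left out together, an alternative chosen after seeing the data, limma called 8 of the 50 members (16%), against 22.3% of all genes in that fit. The 6 higher and 2 lower members were Col22a1 (1.96, adjusted p = 0.0157), Col24a1 (0.68, adjusted p = 0.0368) and Col25a1 (0.60, adjusted p = 0.0374) and the 5 called with all samples. The sign of the uncalled difference turned for Col9a2, Col11a2, Col16a1 (0.39), Col27a1 (0.18) and Lamb2 (0.12), among others. These controls were the highest pair for 31 of the 50 members, so leaving out only them raises the log2 fold changes of those members by construction. With both samples of replicates 1 and 5 left out, limma called 6 members and 3412 of all genes. The 6 were the 5 called with all samples and Col22a1 (2.26, limma BH-adjusted p = 0.0214), without Col24a1 and Col25a1.

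**Figure D4:**
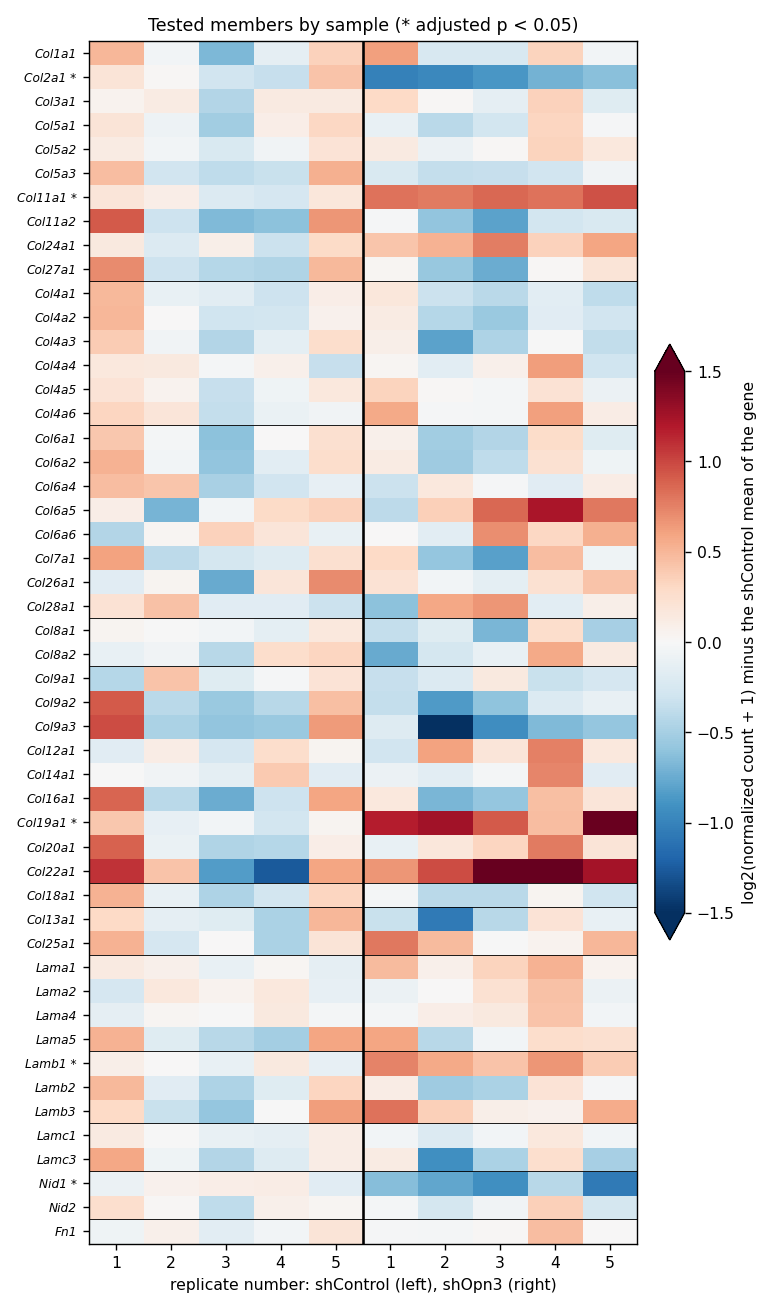
Log2(normalized count + 1) of the 50 tested members (rows, by structural class) in the 10 samples (columns, by replicate number), shown as the difference from each gene's shControl mean; the colour scale ends at -1.5 and 1.5, with values beyond drawn in the end colours, and asterisks mark the 5 called genes. Columns 1 and 5 of shControl are red for many collagens, column 4 of shOpn3 is the highest of its group for 27 members, and Nid1 and Col2a1 are blue in all 5 shOpn3 columns.

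Other genes of the matrix pathway were taken from lists written beside the members. Of 22 other basement membrane components, 1 was called (4.55%, against 18.8% of all genes), Fras1, which helps to anchor embryonic epithelia (425 ± 31.1 to 544 ± 47.5 normalized counts, SD; n = 5 per group; log2 fold change 0.36, SE 0.0928; limma BH-adjusted p = 0.0188), and their median log2 fold change was 0.01. Of 24 receptors for matrix, 4 were called higher and 3 lower (29.2% called, against 18.8% of all genes; median 0.06). The smallest adjusted p values belonged to Itga3, an integrin chain that binds laminin, which fell (1676 ± 166 to 1118 ± 220.3; -0.60, SE 0.127; limma BH-adjusted p = 0.00616), and Sgcb, a subunit of the dystroglycan-associated sarcoglycans, which also fell (-0.25, SE 0.0559; limma BH-adjusted p = 0.00783). The other 5 calls, named after their values were seen, were rises of the integrin chains Itga6 (0.37, SE 0.0926), Itgb3 (0.87, SE 0.263) and Itga2 (1.63, SE 0.426, at 5.97 and 17.3 normalized counts) and of the sarcoglycan Sgcd (0.46, SE 0.146), and a fall of the integrin chain Itgb8 (-0.21, SE 0.0647).

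Enzymes and chaperones of collagen synthesis gave 1 rise and 2 falls among 27 tested genes (11.1% called, against 18.8% of all genes; median log2 fold change -0.01). Plod2, which hydroxylates collagen lysines, fell (834 ± 74.5 to 606 ± 74.9 normalized counts, SD; n = 5 per group; -0.47, SE 0.103; limma BH-adjusted p = 0.00778), and Colgalt1, which adds galactose to hydroxylysine, rose (0.40, SE 0.0969; limma BH-adjusted p = 0.0129). None of 6 small leucine-rich proteoglycans, which bind fibrils, was called by limma, edgeR or DESeq2, and 0 of the 6 had an unadjusted limma p under 0.05 (median 0.14). Among 21 genes of transforming growth factor beta signalling, a known inducer of matrix genes, 3 rose and 1 fell (19.0% called, near the 18.8% of all genes; median 0.04). The receptor Tgfbr1 went from 2423 ± 118 to 5082 ± 1609 normalized counts (SD; n = 5 per group; 1.01, SE 0.173; limma BH-adjusted p = 0.00190), and the signal carrier Smad3 rose by 0.52 (SE 0.0943; limma BH-adjusted p = 0.00279). With the replicate block, which called 30.3% of all genes, the calls were 3 of 22 other basement membrane components, 10 of 24 receptors, 5 of 27 synthesis genes, 0 of 6 proteoglycans and 5 of 21 genes of transforming growth factor beta signalling.

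Markers of the cells that could make these chains were counted in the same fit. The lists share genes and are not independent. The fibroblast markers Dcn, Lum and Ogn were also counted among the proteoglycans, and Fbln1 among the basement membrane components. Pdgfra, a fibroblast marker, and Cspg4, a pericyte marker, were also counted among the oligodendrocyte precursor markers. In bulk tissue, fewer cells of a type and less RNA per cell cannot be told apart. None of 15 fibroblast and meningeal markers and none of 14 pericyte and smooth muscle markers was called by limma, edgeR or DESeq2 without the block (0 of each list at an unadjusted limma p under 0.05), and their summed normalized counts overlapped between groups (35460 to 45386 in shControl and 37854 to 50807 in shOpn3 for the first list, 25208 to 31676 and 19966 to 28881 for the second). Of 13 endothelial markers 1 was called (7.69%, against 18.8% of all genes), Mfsd2a, a lipid transporter of the blood-brain barrier, which fell (590.4 ± 117 to 280.2 ± 46.1, SD; n = 5 per group; -1.07, SE 0.155; limma BH-adjusted p = 0.000809), and the sums again overlapped (27217 to 28662 and 23072 to 32641). The median log2 fold change was 0.06 for the fibroblast, -0.18 for the pericyte and -0.16 for the endothelial list. All pericyte and smooth muscle markers except Anpep (0.15) had negative log2 fold changes, down to -0.33 for Notch3. With the replicate block limma also called Notch3, a receptor of pericytes and smooth muscle (-0.33, adjusted p = 0.0398). It called the endothelial transporter Slco1a4 too (0.17, adjusted p = 0.0442), and 0 of the 15 fibroblast markers.

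Some markers of glia changed between the groups, and the shares called below stand against 18.8% of all genes. Astrocyte markers gave 3 rises among 10 (30%), with sums of 267916 to 353805 in shControl and 314835 to 455677 in shOpn3. Of the called genes, Gfap (means 54392 and 115489) and Aqp4 (83949 and 115292) weigh heavily in that sum. The uncalled Slc1a3, S100b, Fgfr3 and Gjb6 had negative log2 fold changes (-0.04 to -0.29), and the uncalled Slc1a2, Aldh1l1 and Sox9 positive ones (0.07 to 0.22). Of 10 microglial markers 9 rose (90%), with sums of 15739 to 19208 and 25723 to 49972, and all 10 oligodendrocyte markers fell (100%), with sums of 748448 to 1274900 and 255911 to 482833. Oligodendrocyte precursor markers gave 3 falls among 8 tested (37.5%, sums of 15023 to 21274 and 13932 to 17423), and neuron markers 1 rise and 2 falls among 10 (30%, 139738 to 198932 and 137609 to 243187). Blood and perivascular macrophage markers gave 2 rises among 9 (22.2%, near the share of all genes, with sums of 33612 to 90249 and 45806 to 78648). Of 6 ependymal and choroid markers tested none was called by limma (1 at an unadjusted p under 0.05, and 1 called by edgeR and by DESeq2; sums of 1283 to 4243 and 1412 to 1642), and Otx2 and Neu4 were at 0 in all samples. The block added 1 call each in the microglial, precursor, neuron and ependymal lists. The part of these shifts in the rise of Col11a1, Col19a1 and Lamb1 and the fall of Nid1 and Col2a1 was not tested.

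**Figure D5:**
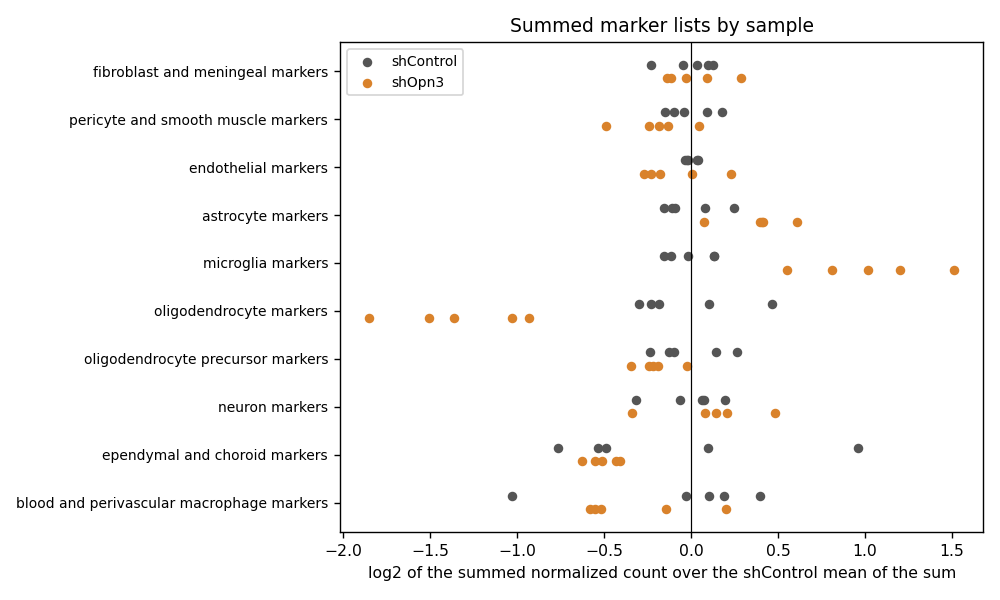
Summed normalized counts of 10 marker lists in each sample, as log2 over the shControl mean of the list (horizontal axis); points are samples, 5 per group. Microglial sums lie higher and oligodendrocyte sums lower in every shOpn3 sample than in any shControl sample, while fibroblast, pericyte and endothelial sums overlap.

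Some of the same libraries stood apart in these sums, but not all of them. shControl replicate 1, the highest control for 27 of the 50 members, had fibroblast and pericyte sums (40323 and 27234) below the control means (41635 and 28015). Its endothelial sum (28662) was the highest of the controls. shControl replicates 1 and 5 were the highest control pair for oligodendrocyte (989646 and 1274900) and astrocyte markers (316214 and 353805). They were also the highest control pair in the microglial, precursor and ependymal sums, but not in the fibroblast, pericyte, endothelial, neuron or blood sums. shOpn3 replicate 4, the highest of its group for 27 members, had the highest sum of its group for fibroblast (50807), pericyte (28881), endothelial (32641), astrocyte (455677) and microglial markers (49972). shControl replicate 5 had the highest control sum of oligodendrocyte (1274900), astrocyte (353805) and pericyte markers (31676), and shControl replicate 3, the lowest control for 26 of the 50 members, had the lowest control sum of fibroblast markers (35460). The lowest neuron sum of each group belonged to shControl replicate 5 (139738) and shOpn3 replicate 4 (137609). Without shOpn3 replicate 4, limma called 6 members, the same 5 and Col8a1, and 2528 of all genes. The part of these sums in the members' values was not tested.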

How the data were processed

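RNA sequencing was analysed from 1 deposited table of 32623 rat genes in 10 samples, 5 in each group. FastQC, STAR, featureCounts and DESeq2 are named in the submitters' processing notes; genome build, annotation and strand setting are not given in the sources used here, so genes that overlap or have near copies are uncertain. Its signal per sample is a read count that the authors divided by 1 size factor per library. All positive values were whole multiples of a library's smallest (100% within 1e-06), so whole reads were recovered. Per the file headers it also holds the authors' mean signal, log2 fold change, Wald score and p-value per gene.

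The members and gene lists were chosen with earlier results of these data known. A result for 1 further gene that fits the naming rule is not reported here, and the gene is in no count of members. Genes with a mean of at least 10 were tested with limma 3.58.1 in R 4.3.3 (lmFit, eBayes with trend) on log2(normalized count + 1) with the group as the only term, two-sided, with Benjamini-Hochberg adjustment over 15597 genes. Per-sample values were given for every called member and, whatever their result, for Fn1, Nid1, Nid2, Col1a1, Col3a1, Col4a1, Col4a2, Lama2, Lamb2 and Lamc1, and up to 2 called genes of smallest adjusted p were named for each pathway list. Values of Lama1, Col11a2, Col22a1, Col9a3, Col25a1 and other members named in full were chosen after they were seen.

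Per the labels' protocols each rat received both viruses, but no label says that equal numbers mark 1 rat. Deviations from the group means correlated across genes in all 5 same-numbered pairs (r from 0.12 to 0.44; median -0.21 for other combinations), and the numbers were taken to pair the samples. Alternatives were a replicate block, pseudocounts of 0.5 and 5, other minimum means, quantile normalization, edgeR 4.0.16 and DESeq2 1.42.0 on recovered reads, and leaving out samples. The 6 chain ratios and 2 exclusions of replicates 1 and 5 were added after seeing the data. No 2 libraries of a group agreed within counting noise (chi-square per gene at least 11.3). The scripts were tested on simulated data. Promoter sequences came from RefSeq, build GRCr8, where 42 of the 54 members were listed; sequence is printed only where the listed start is the outer end of the gene. Of list genes, Hspg2 and Crtap were matched through RefSeq synonyms, and Mia3, Ecm2, Podn, Pecam1, Abcb1a and Foxj1 were not analysed here.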

Additional observations from a re-analysis of the deposited data

Results flagged for a closer look

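Each of the 50 tested members was examined in both groups for a lone extreme sample (Dixon's test at the 95% level, 100 sets of 5 samples); 5 were found, and chance gives about 5 at 1 in 20. Col14a1, which coats fibrils in connective tissue, had one in both groups, each time replicate 4: 722 normalized counts in shControl (next 547) and 919 in shOpn3 (next 542). Fn1 was high in shOpn3 replicate 4 (10941), above a second value of 7997. Col3a1 was low in shControl replicate 3, at 2714 with 3824 in the next. Col9a1 stood at 23.4 in shOpn3 replicate 3, with 18.1 in the next, a difference of a few reads. None of these 4 genes was called.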

How the results depend on the processing

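Over 26 alternatives, 1266 of 1289 member values kept their side of the threshold, 23 gained a call and 0 lost one, and no value called in either fit changed sign. A further count concerns values called in neither fit: 69 of them, in 24 genes, changed sign, with values between -0.11 and 0.39. Col11a1, Col19a1, Lamb1, Col2a1 and Nid1 were called in all 26. The 23 gains were in Col4a2, Col6a5, Col8a1, Col9a3, Col22a1, Col24a1, Col25a1 and Lama1. With the replicate block, limma gave 10 members called (6 higher, 4 lower) and 4726 for all genes called, and edgeR with the replicate block gave 10 (6 higher, 4 lower) and 4777, against 5 (3 higher, 2 lower) and 2940 without it. Leaving out a sample or a pair of samples gave 5 to 7 members called (3 to 5 higher, the most without shOpn3 replicate 1, 2 to 3 lower) and 1604 to 3056 for all genes called, the lowest without both samples of replicate 3. Without shControl replicates 1 and 5, 8 members called (6 higher) were found. Without both samples of these replicate numbers there were 6 (4 higher, 2 lower). Changing the pseudocount, the filter or the scaling left 5 members called each time. The 11 tested members with a mean under 50 normalized counts had standard errors of 0.185 (Col24a1) to 0.480 (Col22a1), and members with more reads reached similar ones (0.336 for Col9a3, 0.320 for Col16a1). Whether depth sets these errors was not tested.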
